A study of Bos taurus with 2 samples.

Results

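The accessory structures of the sperm tail and the remodelling of the late spermatid were examined through 9 genes in testis of crossbred and Zebu bulls. The genes are ODF1, ODF2, AKAP3, AKAP4, CABS1, SPEM1, OAZ3, CAPZA3 and TCP11, and they were taken as every non-control probe that carries one of these gene names. All 9 were found on the array, among 32429 gene names, with 15 probes in 17 spots among 61657 non-control spots. The crossbred pool held testis RNA of 3 Holstein Friesian crossbred bulls with 50 to 75% exotic inheritance, and the Zebu pool held testis RNA of 3 Tharparkar bulls. All bulls were 24 months old, and tissue slices came from a testis removed by unilateral castration. Each pool was labelled with the dye Cy3 and hybridized to 1 bovine array of 60-base probes, with both arrays on the same slide. With 1 array per group there is no replicate check, no test between the groups can be made and no p-value is given, so each value compares these 2 pools and not the breeds. Precision is limited by the number of arrays.

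The sperm tail carries cytoskeletal layers around its axoneme that other flagella lack. Outer dense fibers run along the axoneme through the midpiece and principal piece, and a fibrous sheath of longitudinal columns and ribs surrounds the principal piece and anchors kinases and glycolytic enzymes. Most proteins of these layers are made in haploid spermatids, in which transcripts are stored and translated late while the nucleus is compacted and the excess cytoplasm is shed. In testis as a whole, a larger share of late spermatids and more RNA per spermatid cannot be told apart.

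The unit of the scanner files is the processed signal, an intensity from which the scanner software had subtracted the background. Values are given as normalized log2 signal, which is log2 of the processed signal minus the 75th percentile of the array, and a difference is always crossbred minus Zebu on that scale. The 75th percentile was a signal of 1176 for crossbred and 1233 for Zebu testis. A difference of 1.5, a linear fold of 2.83, was the threshold, and the brighter array had to be well above background. Over 5960 probes with several spots, the SD of a difference between spots of the same probe was 0.33, which covers spotting and scanning only. Each of the 15 probes was well above background on either array, and the local background was between 27 and 47 for every spot of these genes. None of the 17 spots lay in the dark patch of the crossbred array or in its bright patch. With the spots of both patches left out, the spot SD of a difference was 0.276, and the 0.33 is used throughout.

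The probes decide which part of each transcript was read, so the informative ones are shown here 5′ to 3′ with their place on HGSC Btau_3.1 as annotated by the array. The first set shows the ODF2 probes that start at bases 675, 1266 and 2006 of the transcript and share an open reading frame, so they are taken as 3 separate readings of the coding part of the same mRNA. Their genomic spans are longer than 60 bases, so each crosses an intron of the annotation.
ODF2 base 675, chr11:102695626-102696691, plus strand: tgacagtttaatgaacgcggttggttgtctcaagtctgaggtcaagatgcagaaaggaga
ODF2 base 1266, chr11:102703048-102703240, plus strand: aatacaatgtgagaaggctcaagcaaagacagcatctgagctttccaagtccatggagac
ODF2 base 2006, chr11:102708871-102709879, plus strand: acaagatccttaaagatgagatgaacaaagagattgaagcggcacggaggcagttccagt

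The next set shows the single probes of SPEM1 and OAZ3, on which the values of these genes rest. The SPEM1 probe spans 261 bases of the genome and therefore reads spliced RNA, while the OAZ3 probe lies within an uninterrupted stretch.
SPEM1 base 243, chr19:27514974-27515234, plus strand: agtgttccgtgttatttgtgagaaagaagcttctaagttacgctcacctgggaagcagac
OAZ3 base 648, chr3:20525545-20525604, minus strand: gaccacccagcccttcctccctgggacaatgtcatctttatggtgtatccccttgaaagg

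TCP11 is read by 2 probes on chromosome 23 and by another that the annotation places on an unplaced sequence and assigns to another predicted transcript. The latter is shown under the probe it resembles, with capitals at the bases that differ in their overlap of 52 bases, of which 35 are identical.
TCP11 base 367, chr23:9350226-9363723, minus strand: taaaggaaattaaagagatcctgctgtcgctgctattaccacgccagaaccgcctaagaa
TCP11 base 1467, chr23:9346027-9346086, minus strand: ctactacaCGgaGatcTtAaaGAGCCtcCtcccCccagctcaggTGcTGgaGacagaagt
TCP11 base 1492 of the other transcript, unplaced sequence from 58546 to 58605, minus strand: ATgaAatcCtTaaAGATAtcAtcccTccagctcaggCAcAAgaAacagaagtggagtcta

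The AKAP3 probes are 2 versions of the same stretch at the 3′ end of the transcript, on chromosome 5 from 112390233 and 112390239 to 112390292, and they overlap by 54 bases. The last 30 bases of the first are shown with the bases of the second that align to them, and capitals mark where they differ. Counted from the 5′ end of the first probe, the differences are A37G, A42G and C59G.
AKAP3 base 2946: gacgtaAaataAaaattacagataaatgCc
AKAP3 base 2952: gacgtaGaataGaaattacagataaatgGc

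The last 30 bases of the CABS1 probe, on chromosome 6 from 88612723 to 88612782, hold AATAAA, the hexamer that precedes the cleavage site of many mRNAs, shown in capitals.
CABS1 base 1398: ttgctgaattctcttcAATAAAtcttcttg

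A search of the probes for AATAAA on the sense strand found it in 2 of the 15 probes, that of CABS1 and the first of AKAP3, against 8.35% of all 51282 probes. Its reverse complement TTTATT was found in 1, that of CAPZA3, against 3.30% of all probes. Since labelling was primed with oligo dT, readings near a 3′ end and readings further upstream can differ in level. A higher level of a probe is therefore not read as more RNA than that of another. Levels of different probes were used to choose the probe of a gene, to set a limit of brightness and to sum marker levels.

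All 9 genes had the higher signal on the crossbred array, and so did each of the 15 probes. The differences of the genes ran from 1.19 to 2.92 with a median of 1.71, against a median of -0.05 over 24751 detected transcripts. Differences of 1.5 or more were found for 5 of the 9 genes, SPEM1, CABS1, ODF1, OAZ3 and AKAP4, whereas 7.12% of the detected transcripts were higher by that much. Among the 10671 transcripts at least as bright as the dimmest of the 9 genes, the share was 6.3%. No gene of the 9 was lower by 1.5, against 2.92% of the detected transcripts. Since the genes were chosen with earlier results of these arrays known, the count is a description of the 9 genes. The smallest difference among the 15 probes, 1.05, was 3.19 times the spot SD of a difference.

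**Figure D1:**
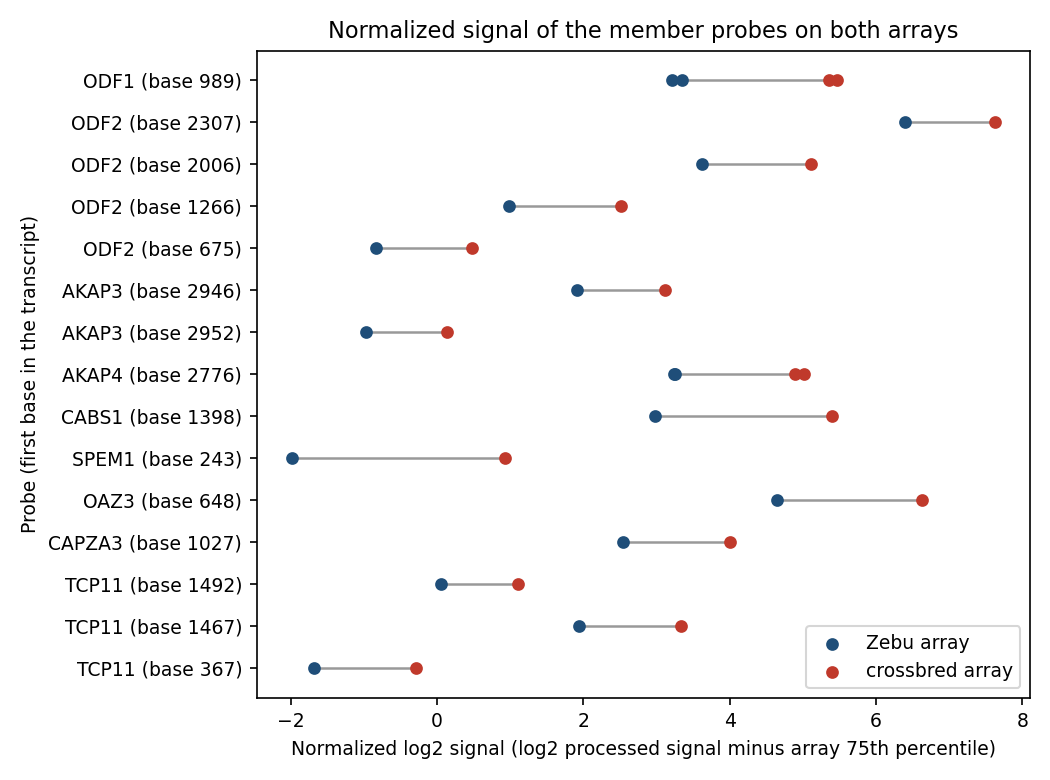
Normalized log2 signal (horizontal axis) of the 15 probes of the 9 genes, with the first base of each probe in its transcript. Points are spots, blue on the Zebu array and red on the crossbred array, and lines join the means. The red points lie to the right of the blue points for every probe, and the line is longest for SPEM1. Levels of different probes cannot be compared.

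Among the outer dense fiber genes, ODF1 encodes the main structural protein of the fibers, and its probe lies on chromosome 14 from 60023794 to 60023853. Its 2 spots had processed signals of 48031 and 52200 on the crossbred array, against 11451 and 12601 on the Zebu array. The spots were thus far closer to each other within an array than between the arrays, which covers spotting and scanning only. The normalized log2 signal was 5.41 in the crossbred pool against 3.28 in the Zebu pool, a difference of 2.13 and a linear fold of 4.37. The spots gave differences of 2.14 and 2.12, so they lay 0.02 apart.

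ODF2 encodes a coiled-coil protein of the fibers that is also a scaffold of the centriole, where it is known as cenexin. The probe at base 2307, on chromosome 11 from 102710121 to 102710180, stands for the gene because it has the highest mean signal, and its processed signal was 231320 in crossbred and 104245 in Zebu testis. This difference, 1.22, was below the threshold. At base 2006 the signals were 40472 and 15108, a difference of 1.49. Further upstream, at base 1266, they were 6741 and 2428 and differed by 1.54, which is past the threshold. At base 675 the signals of 1638 and 693 differed by 1.31. The 4 probes of ODF2 therefore spread over 0.32, about as much as the spot SD of a difference, and the side of the threshold on which ODF2 falls depends on the probe that is read. The mean of the 4 probes was 1.39. A further probe, which the array annotates as partly similar to human ODF2 without giving it the gene name, is outside the rule and differed by -0.21, the other way.

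The fibrous sheath is represented by AKAP4 and AKAP3, the scaffolds to which protein kinase A is bound in the principal piece. AKAP4 is the most abundant sheath protein and is made as a precursor that is cleaved during assembly. Its probe lies on chromosome X from 54591274 to 54591333 and its 2 spots had processed signals of 35034 and 37899 on the crossbred array, against 11731 and 11633 on the Zebu array. The normalized log2 signal was 4.95 and 3.24, a difference of 1.71 and a linear fold of 3.27, with 1.65 and 1.77 in the separate spots. Both spots were past the threshold. They are copies of the same probe on each array, so their closeness covers spotting and scanning only.

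AKAP3 showed the smallest difference of the 9 genes. Its probe at base 2946 had processed signals of 10150 and 4653, a normalized log2 signal of 3.11 in crossbred and 1.92 in Zebu testis, and a difference of 1.19. Its second probe, at base 2952, which differs from it at the 3 bases marked in the sequences, had signals of 1291 and 628 and a difference of 1.11. The difference between the arrays was therefore read alike by both versions, within 0.09. The probes share 51 bases and do not make independent readings.

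Of the genes of spermatid remodelling, SPEM1 differed most. It encodes a protein of the spermatid cytoplasm that is needed to shed excess cytoplasm from the sperm head and neck and that binds ubiquilin 1. Its processed signal was 2248 in crossbred and 312 in Zebu testis, and the spot was well above background on both. The normalized log2 signal was 0.94 and -1.98, a difference of 2.92 and a linear fold of 7.56. Of the detected transcripts, 99.1% had a lower difference. The value rests on a single spot. The paper also measured SPEM1 by qPCR in testes of crossbred and Zebu males and reports a trend opposite to its microarray. The paper's discussion gives SPEM1 as significantly lower by qPCR, although its results section words the change as upregulated in crossbred males.

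CABS1 encodes a calcium-binding protein that appears in elongating spermatids and stays in the sperm tail. Its processed signal was 49563 in crossbred and 9707 in Zebu testis. The normalized log2 signal was 5.40 and 2.98, a difference of 2.42 and a linear fold of 5.35, higher than that of 98.1% of the detected transcripts. CABS1 and SPEM1 lay 0.50 apart, more than the spot SD, while CABS1 and ODF1 lay 0.29 apart, less than the spot SD.

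OAZ3 encodes the antizyme of haploid germ cells, which is translated through a ribosomal frameshift that polyamines promote and which inhibits ornithine decarboxylase. Its processed signal was 115975 in crossbred and 30808 in Zebu testis. The normalized log2 signal was 6.62 and 4.64, a difference of 1.98 and a linear fold of 3.95. A further probe at the start of the same transcript carries the transcript's identifier in place of a gene symbol, so it is outside the rule and was found after the values were seen. Its 2 spots had processed signals of 12827 and 13080 in crossbred testis and 2758 and 2788 in Zebu testis, and the probe differed by 2.29. Both probes of the OAZ3 transcript thus differed in the same direction, 0.31 apart.

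CAPZA3 encodes the alpha subunit of the actin capping protein that is made in spermatids, where actin lines the forming acrosome and head. Its probe lies on chromosome 5 from 98018886 to 98018945, on the minus strand. The processed signal was 18799 for crossbred against 7146 for Zebu testis, a difference of 1.46 and a linear fold of 2.76. It was the nearest below the threshold, as AKAP4 was the nearest above it, and the values of both genes lay 0.25 apart, less than the spot SD of a difference.

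TCP11, a gene of the mouse t complex whose product is found in sperm and is linked with cAMP signalling, was read at 2 places of its chromosome 23 transcript. The probe at base 1467 had processed signals of 11912 and 4750 and differed by 1.39. The probe at base 367 had signals of 960 and 384 and also differed by 1.39, so these probes gave the same value to 2 decimals. The probe of the unplaced transcript had signals of 2542 and 1284 and differed by 1.05. Near-identical copies could share signal between these probes, although the probes at bases 1467 and 1492 are identical at only 67.3% of their overlap.

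**Figure D2:**
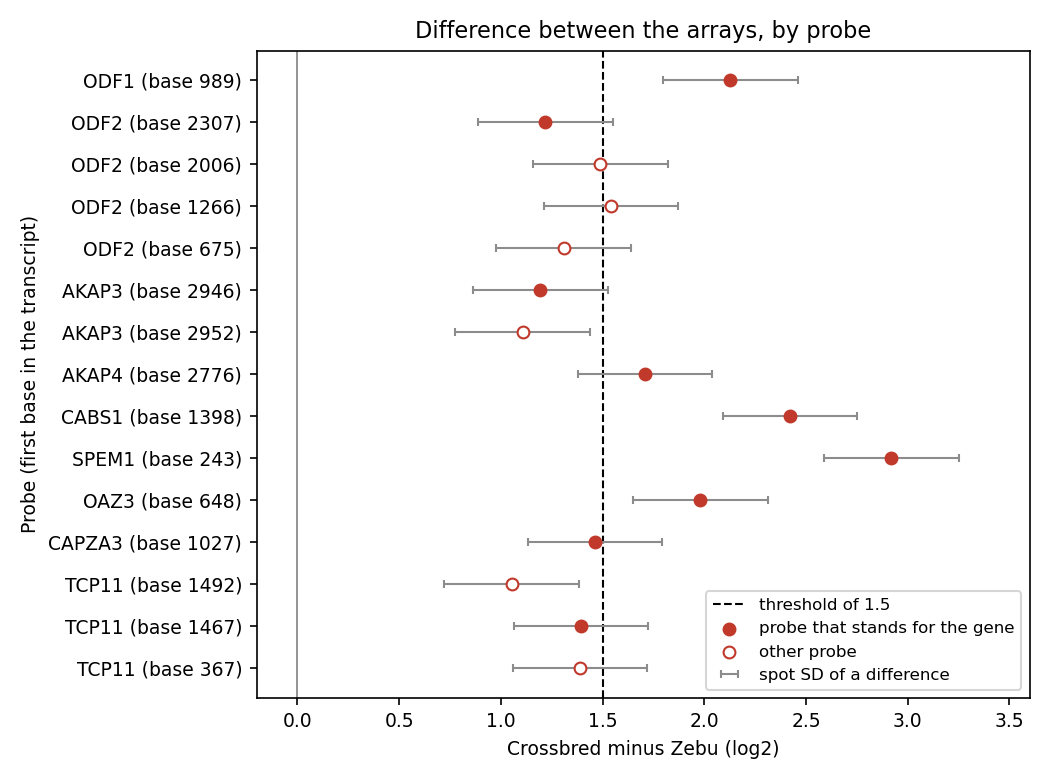
Difference between the arrays (crossbred minus Zebu, log2, horizontal axis) for the 15 probes. Filled points are the probes that stand for a gene, open points are the other probes, bars are the spot SD of a difference (0.33) and the dashed line is the threshold of 1.5. No bar reaches 0, and the bars of 5 genes that are read as above or below the threshold, ODF2, AKAP3, AKAP4, CAPZA3 and TCP11, cross the line. With the spot SD of 0.276 outside the patches, the bars of AKAP3 and of the filled ODF2 point would fall short of it.

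In order of size the differences were those of SPEM1, CABS1, ODF1, OAZ3, AKAP4, CAPZA3, TCP11, ODF2 and AKAP3. Of the 8 pairs of neighbours in this order, only SPEM1 and CABS1 lay further apart than the spot SD. Over probes, 6 of 15 were higher by 1.5 or more, against 6.14% of 39804 detected probes. The median over the 15 probes was 1.46, and ODF2, AKAP3 and TCP11 hold 9 of these probes. The GC content of the probes ranged from 35% to 55%.

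**Figure D3:**
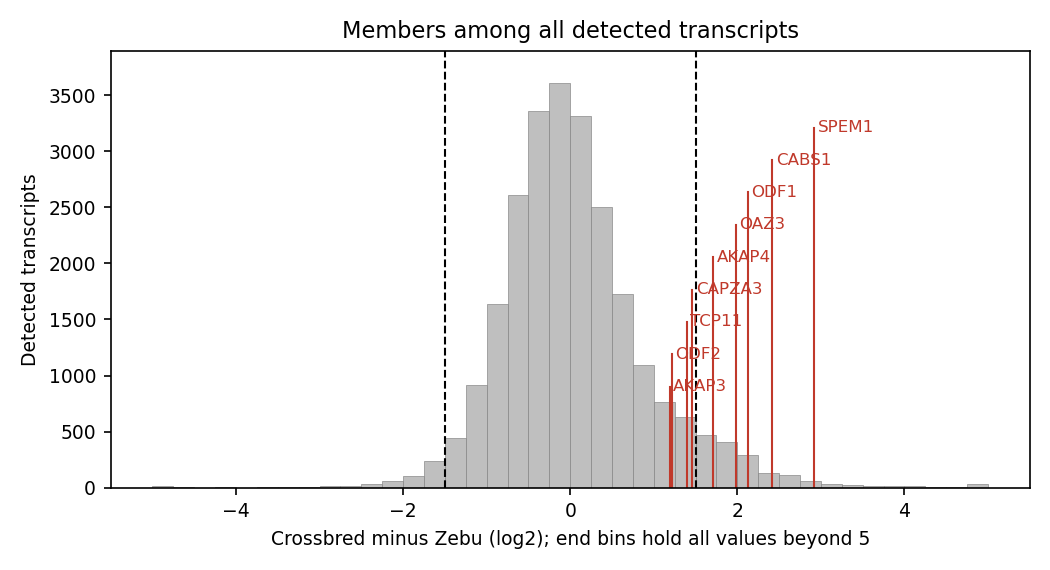
Histogram of the difference between the arrays (crossbred minus Zebu, log2, horizontal axis) over 24751 detected transcripts (vertical axis, number per bin of 0.25), with dashed lines at 1.5 and -1.5. Red lines mark the 9 genes, and their heights have no meaning. All lie in the right shoulder of the histogram, from AKAP3 at 1.19 to SPEM1 at 2.92.

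The places of the spots on the array were examined since the crossbred array has uneven areas. For each spot, the median difference was taken over the 18 nearest non-control spots, leaving out those dim on either array. Over all spots this median lay between -0.44 and 0.38 for the central 90% of them. For 13 of the 17 spots of the 9 genes it lay in that range. The spots of AKAP3 had neighbours with medians of 0.42 and 0.59, the spots of ODF1 had 0.06 and 0.39, and the ODF2 spot at base 2006 had -0.54. Each spot differed by more than the median of its neighbours, by 0.52 for the second AKAP3 probe and by 2.96 for SPEM1 as the extremes. Single neighbours could differ by more than the spot itself. The first AKAP3 spot, at 1.19, had 3 of 14 neighbours at 1.5 or more. With the median of the neighbours subtracted from every spot of the array and the 75th percentile taken anew, AKAP3 differed by 0.74 in place of 1.19, and CAPZA3 and TCP11 differed by 1.60 and 1.52, past the threshold. The part of the array surface in the value of AKAP3 was not tested.

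**Figure D4:**
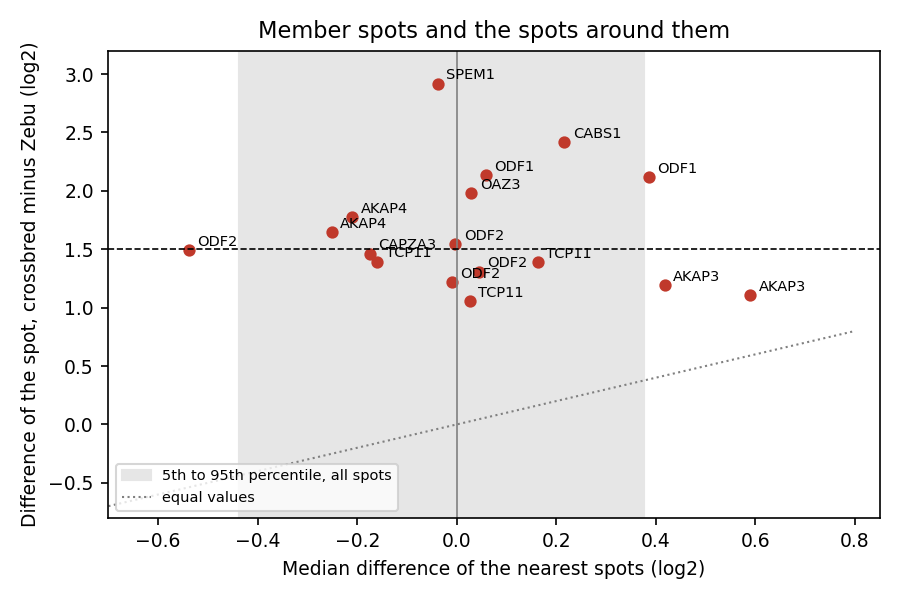
Difference of each of the 17 spots (crossbred minus Zebu, log2, vertical axis) against the median difference of its nearest spots (horizontal axis). The grey band holds the central 90% of such medians over all spots, the dashed line is the threshold of 1.5 and the dotted line marks equal values. All spots lie above the dotted line, and the AKAP3 spots lie nearest to it.

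The other genes of the tail layers were described from a list of partners of the sheath and the fibers, of which 23 of 27 were found and none of the 23 was dim on either array. Their median difference was 0.93. Differences of 1.5 or more were found for 5 of the 23 upwards and for none downwards, against 7.12% and 2.92% of the detected transcripts. Of the remaining fiber genes, ODF3 differed by 1.44, ODF4 by 0.98 and ODF3L1, a relative of ODF3, by 1.67. Of the sheath proteins, FSIP1 differed by 1.28 and FSIP2 by 0.51. CABYR, a calcium-binding protein of the sheath, differed by 0.72. ROPN1 and ROPN1L, which dock on the sheath anchors, differed by 1.60 and 0.47, and SPA17, of the same docking family, by 0.87. All of the 9 genes just named had the higher signal on the crossbred array, and ODF3L1 and ROPN1 were past the threshold.

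GAPDHS, the glycolytic enzyme bound to the sheath, differed by 0.93, and its other probe by 2.26. TSSK4, a kinase that phosphorylates ODF2, differed by 1.38 and 0.86 in its 2 probes. The list was led by PRKAR2A, the regulatory subunit of protein kinase A that anchors bind, with a normalized log2 signal of 3.57 for crossbred against 1.01 for Zebu testis. It differed by 2.56, and by 1.64 in its other probe. The lowest was PRKACA, the catalytic subunit, with 3.62 and 3.57, a difference of 0.06 that became -0.06 after quantile normalization. Subunits of the same kinase thus had the largest and the smallest difference of the list.

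The paralogs and direct partners of the 9 genes, most of them expressed in many tissues, had a median difference of 0.14 over 17 genes, and the median was -0.02 after quantile normalization. Of the 17, 2 were higher by 1.5 or more and none was lower, which is near the 7.12% and 2.92% of the detected transcripts. ODF2L, the paralog of ODF2, differed by 0.28, and by 0.94 in its other probe. The general antizymes OAZ1 and OAZ2 differed by 0.08 and 0.70, against 1.98 for OAZ3, and their target ODC1 differed by 0.15. After quantile normalization OAZ1 and ODC1 differed by -0.13 and -0.02, each less than the spot SD. AZIN1, the antizyme inhibitor, differed by -0.47, while AZIN2, the inhibitor found in testis and brain, which the array lists as ADC, was the highest of the list with 2.30 and had 0.73 in its other probe.

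The capping protein subunits CAPZA1 and CAPZA2 differed by -0.22 and -0.07, against 1.46 for CAPZA3, although the probes of CAPZA1 reached 1.13. Their shared beta subunit CAPZB differed by 1.68 by a single probe. TCP11L1 and TCP11L2 differed by 0.77 and 0.14, against 1.39 for TCP11, and another probe of TCP11L2 differed by 0.74. UBQLN1, the partner of SPEM1, differed by 0.55 and its paralog UBQLN2 by -0.67. Of the other kinase anchors, AKAP8 differed by -0.48 and AKAP9 by -0.19, and AKAP11 by 0.79, with a lowest probe at -0.67. The lowest of the list was AKAP1, the anchor at mitochondria, with -0.70. The germ cell forms OAZ3, CAPZA3 and TCP11 therefore each had a larger difference than the paralogs of their own family, by 1.28, 1.54 and 0.63 at the least when each gene is read from its brightest probe. That comparison has no replicate, and the difference between paralogs was not tested.

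Other genes of late spermatids, 32 of 34 found and none of them dim on either array, had a median difference of 1.69, close to the 1.71 of the 9 genes. Of these, 25 were higher by 1.5 or more and none was lower, against 7.12% and 2.92% of the detected transcripts. ROPN1 is also among the sheath partners. The highest was TSSK6, a kinase needed for nuclear compaction, with a normalized log2 signal of 2.01 for crossbred against -0.76 for Zebu testis and a difference of 2.77. The lowest was PRM1, the protamine that packs sperm DNA, with 7.43 and 7.07 and a difference of 0.36. This list too was drawn up with earlier results of these arrays known.

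**Figure D5:**
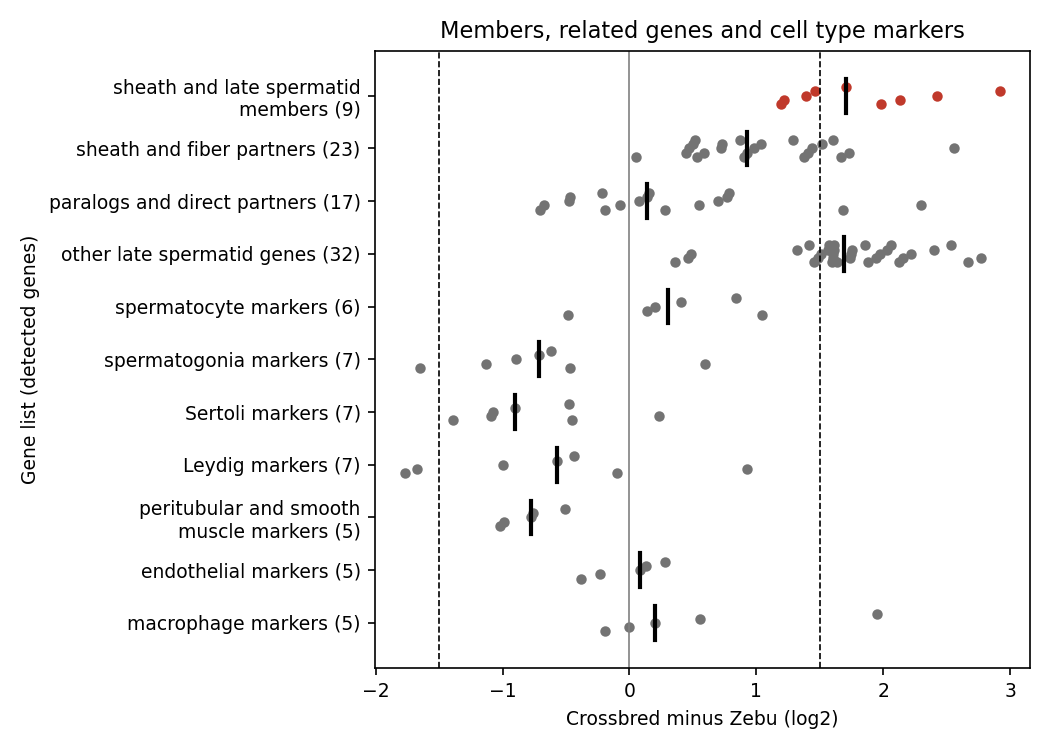
Difference between the arrays (crossbred minus Zebu, log2, horizontal axis) for the 9 genes (red), related gene lists and cell type marker lists (grey), with the number of detected genes in brackets. Each point is a gene read from its brightest probe, black bars are medians, and dashed lines mark 1.5 and -1.5. The 9 genes and the other late spermatid genes have medians of 1.71 and 1.69, and the spermatogonia, Sertoli, Leydig and peritubular markers have medians below 0.

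Markers of other germ cells and of most somatic cells did not share the size of these differences. Spermatocyte markers had a median of 0.30 over the 6 that were found, from -0.49 to 1.04, with none past the threshold. Spermatogonia markers had a median of -0.71 over 7, with SALL4 lower by more than 1.5 and 1 above 0. Sertoli markers had a median of -0.90 over 7, from -1.39 to 0.24. Leydig markers had a median of -0.57 over 7, from -1.77 to 0.93, with HSD3B1 and CYP17A1 lower by more than 1.5 and HSD17B3, the enzyme that forms testosterone in testis, as the only gene above 0. Peritubular and smooth muscle markers had a median of -0.77 over 5, all below 0.

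The brightest probes weigh most in a summed level (log2 of the sum of normalized signals). The 8 late spermatid markers are all among the 32 late spermatid genes above, so their sum is not a separate reading. The summed level of the late spermatid markers was 8.85 for crossbred and 7.99 for Zebu testis, and that of the Sertoli markers was 7.09 and 7.73. For Leydig markers it was 6.49 and 7.06, for spermatogonia markers 4.88 and 5.43, and for peritubular and smooth muscle markers 4.87 and 5.69. It was 4.16 for crossbred and 3.22 for Zebu testis over the macrophage markers, 3.77 and 3.50 over the spermatocyte markers, and -0.07 and -0.04 over the endothelial markers. Endothelial markers had a median of 0.08 and macrophage markers of 0.20 over 5 genes each, with AIF1 higher by 1.95. Of the markers that were found, only CD163 was dim, on the crossbred array. The normalized log2 signal of AIF1 was 3.09 for crossbred and 1.14 for Zebu testis, which makes most of the rise of the macrophage sum. Of the macrophage markers, 3 of 5 were above 0, and CSF1R differed by -0.19. The summed levels of late spermatid, macrophage and spermatocyte markers were thus higher on the crossbred array, like the 9 genes. Those of Sertoli, Leydig, peritubular and spermatogonia markers were lower. Their part in the values of the 9 genes was not tested.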

How the data were processed

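Testis RNA was pooled from 3 bulls per group and measured on 1 single-colour array each, and samples were grouped as crossbred and Zebu by their labels. The authors deposited scanner files (Agilent Feature Extraction 11.5.1.1) with an intensity per spot, the processed signal, which had its background subtracted per the file headers but was not normalized between arrays. They also deposited log2 values, shifted by the 75th percentile of each array. The median spot background was 34 on the crossbred and 35.5 on the Zebu array, and 72.0% and 74.3% of the non-control spots were well above background.

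Control spots and 13 outlier spots were left out, no spot was saturated, log2 signals of replicate spots were averaged per probe, and the array's 75th percentile, taken over 51282 non-control probes, was subtracted. A gene was read from its probe of highest mean signal, and a dim side was set to a bound, the higher of its own value and the lowest value well above background on that array. Symbols of all 9 genes were found in the ARS-UCD2.0 gene table, which was used for names only. Named are the 9 genes, a fixed set of their paralogs and direct partners with fiber and sheath genes, and the highest and lowest gene of each list. The remaining paralogs and partners, ODF3L1 and single cell type markers were named after their values were seen. The genes and the lists were chosen with earlier results of these data known. The alternatives were normexp background correction (offset 50), other scalings, the authors' log2 values, other filters, probes and thresholds, and the patches left out. The steps were tested on simulated data in which the differences put in were all well past the threshold. Calls near the threshold were not tested in this way. Python 3.11.15, numpy 2.4.6, pandas 2.3.3, scipy 1.17.1, R 4.3.3 and limma 3.58.1 were used.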

Additional observations from a re-analysis of the deposited data

How the results depend on the processing

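Each of the 9 genes kept the higher signal in crossbred testis in all 99 combinations of gene and alternative, and 98 of them lay within the spot SD of the value reported. The exception was AKAP3, with 0.74 after the median of the 18 nearest spots was subtracted. That alternative and the brightest probe on either array were chosen after seeing the data. Many of the 99 combinations were no check of a gene. The other filters on dim probes and the brightest probe on either array left all 9 values unchanged. Averaging probes could change only ODF2, AKAP3 and TCP11, the genes with several probes. The authors' log2 values, the patches left out and the scalings apart from quantile normalization each moved all 9 genes by the same small amount. Normexp background correction, quantile normalization and subtraction of the neighbours could move each gene by its own amount. The median of the 9 genes ran from 1.55 (quantile normalization) to 1.87 (neighbours subtracted). The count of 5 genes past the threshold became 6 after normexp background correction and 7 with the neighbours subtracted. It was 9 at a linear fold of 1.5, 9 at a log2 difference of 1 and 3 at 2, and the count of probes was 15, 15 and 3. No gene of the 9 was lower under any alternative run. Over all transcripts, the main counts of 1762 higher and 722 lower became 5290 and 5504 at a linear fold of 1.5, 3173 and 2196 at a log2 difference of 1, and 863 and 297 at 2, as the thresholds imply. After normexp background correction 1030 were higher and 169 lower, so 85.9% of the calls were higher, against 70.9%, and the cause was not tested. When every probe of a gene was averaged, 1481 were higher and 450 lower, and without probes dim on either array these were 1445 and 398, and the cause was not tested. No paired analysis was possible because each group has 1 array. No array could be left out for the same reason. Signal over background did not limit the 9 genes, and the missing replicate does.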
